A study of Mus musculus with 12 samples.

Results

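Trp53, the gene of the tumor suppressor p53, and 9 genes described as its direct targets were followed through 12 mouse rhabdoid tumors. The 10 genes were taken by name from the 24060 gene rows of the expression files, by a rule that uses no measured value, although earlier results of these data were known when the set was chosen. They are Trp53 itself, its inhibitors Mdm2 and Mdm4, the cell cycle genes Cdkn1a and Ccng1, the apoptosis genes Bax, Bbc3 and Pmaip1, and the stress response genes Sesn2 and Gdf15. The question was how high each gene was in these tumors and whether p53 and its targets varied together.

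The p53 protein is a transcription factor that is kept low in unstressed cells. MDM2, a ubiquitin ligase and itself a p53 target, marks p53 for degradation, and MDM4 binds p53 and blocks its activity. DNA damage, oncogene activity and other stresses release p53 from this control, and it then raises genes that arrest the cell cycle, repair DNA or start apoptosis. This regulation acts mainly on the protein, which RNA levels do not report. Rhabdoid tumors are aggressive tumors of early life defined by loss of SMARCB1, a subunit of the SWI/SNF chromatin remodeling complex.

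All 12 tumors arose in P0-CreC;Smarcb1 flox/flox mice on the FVB/N background, in which the Cre recombinase of the P0-CreC transgene deletes Smarcb1 in early neural crest cells. The labels place 4 tumors as retro-orbital, 3 in the cheek, 3 in the meninges, 1 on the vestibular nerve and 1 on the trigeminal nerve. No allele of Trp53 was engineered in these mice, the age of each mouse is not stated in the labels, and normal tissue was not analysed here. The paper describes bromodeoxyuridine given before dissection to assess proliferation, and whether the mice of these 12 tumors received it is not stated. The first part of the sample name is shared by cheek 1 and meninges 1, by cheek 2 and 3, and by retro-orbital 3 and the trigeminal tumor. Whether such tumors came from one mouse is not stated, so the p-values measure the spread between tumors treated as independent.

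Total RNA was sequenced after removal of ribosomal RNA, and each gene's value is in RPKM, a fragment count scaled to the length of the transcript and to the fragments of the tumor. Small RPKM values rise in fixed steps of 1 fragment, and the totals worked out from these steps ran from 13206166 (cheek 3) to 57128413 (retro-orbital 3) fragments, the median being 27929713, while 12575 to 14528 genes per tumor reached 1 RPKM. These inferred totals are not the numbers of reads sequenced, which the paper gives only as a range over the samples. Smarcb1, the deleted gene, was measured at 1.70 to 6.31 RPKM over the 12 tumors, with the lowest value in the vestibular tumor and the highest in meninges 3. Without normal tissue among the values used here, this level could not be set against an intact allele. The paper measured Smarcb1 by quantitative PCR in the sequenced RNA samples, beside control brain, olfactory nerve and trigeminal nerve. In its staining, tumor cells had lost SMARCB1, while infiltrating inflammatory and endothelial cells kept it. Whether the Smarcb1 fragments counted here came from the remaining exons of the deleted allele or from cells without the deletion was not tested. Of the Schwann cell markers, Sox10 had a highest value of 3.56 RPKM, while Pmp22 ranged from 20.6 to 159 RPKM.

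The p53 protein binds a pair of copies of a 10-letter element, the p53 consensus decamer, which reads the same on both strands. Of the 10 genes, 9 had a promoter window in the RefSeq table of GRCm38.p6, covering 250 bases before to 50 bases after an annotated start, and Pmaip1 had none. A decamer without a mismatch was found in the windows of 5 of the 9 genes, or 55.6%, compared with 9.55% of all 27025 genes with a window. Because the genes were chosen as p53 and its described targets, their higher share of decamers, single or paired, is no independent support. A pair of decamers with at most 13 bases between them and at most 1 mismatch in all was found for Bax, Ccng1 and Cdkn1a, 33.3% of the 9 genes and 1.24% of all genes. These stretches are shown because they are the letters that p53 is known to recognize, with the decamers of up to 1 mismatch in capitals and 6 flanking bases on each side, 5′ to 3′ on the strand of the gene.
Cdkn1a: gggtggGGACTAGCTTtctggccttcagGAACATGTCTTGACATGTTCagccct
Bax: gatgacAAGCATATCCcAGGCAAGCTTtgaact
Ccng1: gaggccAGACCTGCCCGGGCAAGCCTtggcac
Mdm2: ggatagGAACTTGCCTagcgac
Trp53: acggaaGGACTTGCCCttactt
The Cdkn1a stretch lies at chr17:29090900-29090953 on the plus strand, 79 to 26 bases before the annotated start of its window, and its middle decamer belongs to both pairs counted there. The Bax stretch lies at chr7:45467084-45467116 on the minus strand, 218 to 186 bases before the annotated start of its window. The Ccng1 stretch lies at chr11:40755456-40755487 on the minus strand, and ends 170 bases before that of its own. These distances hold for the annotated starts of these windows only, and which start the tumors used was not tested. The Mdm2 stretch with a single decamer lies at chr10:117710929-117710950 on the minus strand, and that of Trp53 at chr11:69580278-69580299 on the plus strand. A match is only a description of these letters, since binding of p53 was not measured, and the windows of Mdm4, Bbc3, Sesn2 and Gdf15 hold no such decamer without a mismatch.

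All 10 genes were detected in the tumors, and 9 of them passed 1 RPKM in all 12. Ordered by the median over the 12 tumors, and per length of transcript, Ccng1 was highest at 116 RPKM, followed by Bax at 53.5, Cdkn1a at 40.2, Mdm2 at 35.96, Trp53 at 34.4, Mdm4 at 26.9, Sesn2 at 18.7, Pmaip1 at 11.1, Bbc3 at 9.74 and Gdf15 at 0.607 RPKM. Ccng1 lay above Bax in 12 of 12 tumors, Mdm4 above Sesn2 in 11, Sesn2 above Pmaip1 in 10 and Bbc3 above Gdf15 in 12. The neighbours from Bax to Mdm4 changed places between tumors: Bax lay above Cdkn1a in 8 of 12 tumors, Cdkn1a above Mdm2 in 7, Mdm2 above Trp53 in 7 and Trp53 above Mdm4 in 8. Pmaip1 lay above Bbc3 in 7 of 12. These counts, which are no test, thus did not settle the order of these neighbours or of Pmaip1 and Bbc3. Genes farther apart kept their order in more tumors: Bax lay above Mdm4 in 12 of 12 tumors and above Trp53 in 11, and Cdkn1a above Mdm4 in 11.

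**Figure D1:**
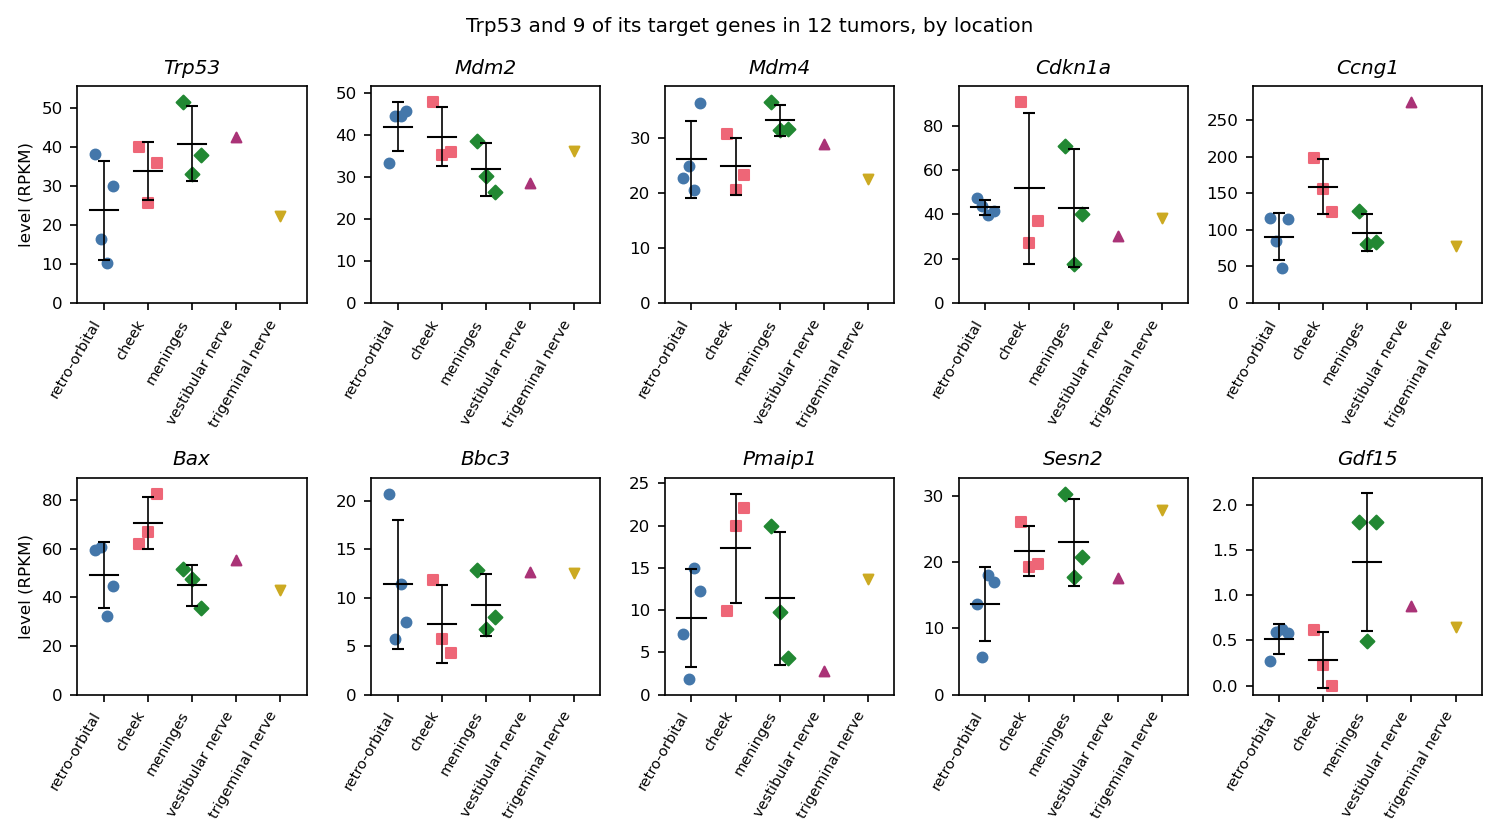
Level in RPKM (vertical axis, linear) of Trp53 and 9 of its targets in each of the 12 tumors, 1 point a tumor, grouped by location on the horizontal axis, with the mean (line) and SD (bars) for locations with 3 or 4 tumors. Trp53 runs from 10.3 to 51.5 RPKM, Ccng1 stands out in the vestibular tumor at 275 RPKM, and Gdf15 does not exceed 1.81 RPKM in any tumor.

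Trp53 (chr11:69580359-69591873 on the plus strand, mm10) varied 4.99 times between its lowest and its highest tumor, on 884 to 2646 fragments. In the retro-orbital tumors it was 38.2, 16.5, 10.3 and 30.0 RPKM, and in the cheek tumors 39.9, 25.6 and 35.8 RPKM. In the meninges it was 51.5, 33.0 and 38.0 RPKM, and it was 42.4 RPKM in the vestibular and 22.4 RPKM in the trigeminal tumor. The low values were those of retro-orbital 2 and 3, the high value that of meninges 1, and the ranges of all 3 locations with several tumors overlapped. Wrap53, which is transcribed from the opposite strand and overlaps the Trp53 locus, was at 5.005 to 10.5 RPKM, and whether the counting used strand is not stated, so reads of the shared stretch cannot be told apart. The spread of Trp53 on the log2(RPKM + 1) scale (SD 0.62) exceeded that of 65.4% of the genes tested.

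The inhibitors of p53 were the steadiest of the 10 genes. Mdm2 (chr10:117688875-117710758, minus strand) was 33.2, 44.4, 44.3 and 45.7 RPKM in the retro-orbital tumors and 47.7, 35.1 and 35.9 RPKM in the cheek tumors. It was 38.6, 30.2 and 26.4 RPKM in the meninges, 28.5 RPKM in the vestibular and 36.1 RPKM in the trigeminal tumor. Its highest value was only 1.80 times its lowest. Mdm4 (chr1:132959484-133030561, minus strand) was 22.7, 24.8, 20.5 and 36.3 RPKM in the retro-orbital tumors and 30.6, 20.6 and 23.2 RPKM in the cheek tumors. It was 36.5, 31.5 and 31.6 RPKM in the meninges, 28.9 RPKM in the vestibular and 22.6 RPKM in the trigeminal tumor, a range of 1.77 times. The meninges tumors all lay above the cheek tumors in Mdm4, although meninges 2 and 3 did so narrowly, while Mdm2 overlapped between all 3 locations. On the log2 scale the spread of Mdm2 (SD 0.27) and Mdm4 (SD 0.29) exceeded that of only 14.7% and 18.8% of the genes tested.

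The cell cycle genes were high in all tumors, each with 1 or 2 tumors far above the rest. Cdkn1a (chr17:29090976-29100727, plus strand) encodes p21, the inhibitor of cyclin-dependent kinases through which p53 arrests the cell cycle. It was 47.5, 43.9, 39.96 and 41.4 RPKM in the retro-orbital, 90.8, 27.2 and 37.2 RPKM in the cheek and 70.8, 17.8 and 40.3 RPKM in the meninges tumors, and 30.4 RPKM in the vestibular and 38.2 RPKM in the trigeminal tumor. Cheek 1 and meninges 1, which share part of their sample name, held the highest values, meninges 2 the lowest, and the 4 retro-orbital tumors lay close together (SD 3.32 RPKM). Ccng1 (chr11:40748552-40755311, minus strand) encodes cyclin G1, a p53 target that takes part in the feedback on MDM2. It was 116, 84.3, 47.7 and 115 RPKM in the retro-orbital tumors, 198, 155 and 124 RPKM in the cheek, and 125, 80.6 and 82.8 RPKM in the meninges. The vestibular tumor reached 275 RPKM and the trigeminal tumor 78.1 RPKM. The cheek tumors all lay above the retro-orbital ones, and retro-orbital 3 was lowest, as it was for Trp53.

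The apoptosis genes differed in level and in the tumors where they were high. Bax (chr7:45461697-45466898, minus strand) encodes a protein that permeabilizes the outer mitochondrial membrane. It was 59.3, 60.6, 32.1 and 44.4 RPKM in the retro-orbital, 62.0, 66.6 and 82.6 RPKM in the cheek and 51.7, 47.4 and 35.4 RPKM in the meninges tumors, and 55.2 RPKM in the vestibular and 42.9 RPKM in the trigeminal tumor. All 3 cheek tumors lay above every other tumor. Bbc3 (chr7:16308393-16318205, plus strand) encodes PUMA, a BH3-only protein that neutralizes the survival members of the BCL-2 family. It was 20.8, 5.78, 11.4 and 7.54 RPKM in the retro-orbital, 11.9, 5.72 and 4.33 RPKM in the cheek and 12.8, 6.75 and 8.05 RPKM in the meninges tumors, and 12.7 RPKM in the vestibular and 12.5 RPKM in the trigeminal tumor. Retro-orbital 1 was highest, and the ranges of the locations overlapped. Pmaip1 (chr18:66458533-66465565, plus strand) encodes NOXA, another BH3-only protein, which acts on MCL-1. It was 7.22, 1.81, 14.98 and 12.3 RPKM in the retro-orbital, 9.90, 19.9 and 22.1 RPKM in the cheek and 19.9, 9.83 and 4.36 RPKM in the meninges tumors, and 2.75 RPKM in the vestibular and 13.6 RPKM in the trigeminal tumor. It had the widest range of the 9 genes that passed the filter, 12.2 times between retro-orbital 2 and cheek 3, and its spread (SD 0.99) exceeded that of 86.3% of the genes tested.

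Of the stress response genes, Gdf15 was the lowest of the 10, while Sesn2 lay above Pmaip1 and Bbc3 in its median. Sesn2 (chr4:132492032-132510501, minus strand) encodes sestrin 2, a stress-induced inhibitor of mTORC1 signaling. It was 13.6, 5.73, 18.1 and 17.0 RPKM in the retro-orbital, 26.0, 19.2 and 19.7 RPKM in the cheek and 30.3, 17.8 and 20.7 RPKM in the meninges tumors, and 17.6 RPKM in the vestibular and 27.8 RPKM in the trigeminal tumor. The cheek tumors lay above the retro-orbital ones, and retro-orbital 2 was far below the others. Gdf15 (chr8:70629393-70632456, minus strand) encodes a secreted cytokine of the TGF-β superfamily that many stressed cells release. It was 0.272, 0.596, 0.630 and 0.582 RPKM in the retro-orbital, 0.618, 0.226 and 0 RPKM in the cheek and 1.81, 0.491 and 1.81 RPKM in the meninges tumors, and 0.877 RPKM in the vestibular and 0.654 RPKM in the trigeminal tumor. These values rest on 0 to 54 fragments. In cheek 3, the tumor with the lowest total, no fragment was counted, which allows a level of up to 0.210 RPKM (3 fragments). Gdf15 reached 1 RPKM in only 2 tumors and was therefore not tested.

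Whether the level of the genes depended on where the tumor grew was tested over the 10 retro-orbital, cheek and meninges tumors with limma on log2(RPKM + 1). With the tumors taken as independent, none of the 9 genes tested passed the F test over the 3 locations (Benjamini-Hochberg adjusted over all 14745 genes tested), and the lowest adjusted p of limma among them was 0.37, for Ccng1. Few genes of any kind did: 0.0407% of all genes passed at an adjusted p under 0.05, and 14.3% at an unadjusted p under 0.05, where 0 of the 9 genes did. The values without overlap described above were 3 of 9 genes between retro-orbital and cheek tumors (Bax, Ccng1 and Sesn2), 0 of 9 between retro-orbital and meninges tumors and 2 of 9 between cheek and meninges tumors (Mdm4 and Bax). Over all 14742 genes considered, 11.1%, 9.23% and 28.7% did not overlap in these same pairs, and the counts among the 9 are read against these shares. A further fit, chosen after seeing the data, took tumors that share part of their sample name as a block. Its estimated correlation within a name was 0.93, from cheek 1 with meninges 1 and cheek 2 with 3. In this fit Ccng1 passed the F test (limma, adjusted p = 0.0495), as did 19% of all genes. Between meninges and cheek tumors it called Ccng1 (-0.68 ± 0.18, adjusted p = 0.0190 by limma) and Mdm2 (-0.31 ± 0.09, adjusted p = 0.0300), both lower in the meninges, 2 of the 9 genes beside 28.8% of all genes. It called 0 of the 9 between retro-orbital and cheek tumors (0.0136% of all genes), 0 between meninges and retro-orbital tumors (0.0203%), and none of the targets in the regression on Trp53 (0.386%).

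The differences farthest beyond their errors were those of Ccng1, Bax, Trp53 and Sesn2, and none passed the adjusted threshold of limma with the tumors taken as independent. On the log2(RPKM + 1) scale, the difference of Ccng1 between retro-orbital and cheek tumors was -0.86 ± 0.33 (SE, lower in retro-orbital), with an adjusted p of 0.36 by limma and an unadjusted p of 0.027. Pmaip1 differed most in size, at -1.06 ± 0.64 in the same direction, with an adjusted p of 0.53 by limma. In this comparison 1 of the 9 genes had an unadjusted p under 0.05, and of all genes 12% did, while 0.0271% passed after adjustment. The difference of Bax between meninges and cheek tumors was -0.65 ± 0.26, lower in the meninges (limma, adjusted p = 0.26, unadjusted p = 0.035), again the only one of the 9 with an unadjusted p under 0.05, where 17% of all genes had one and 0.0475% passed after adjustment. Between meninges and retro-orbital tumors, Trp53 differed by 0.89 ± 0.40 and Sesn2 by 0.79 ± 0.36, both higher in the meninges, with adjusted p-values of 0.55 by limma. None of the 9 genes had an unadjusted p under 0.05 there, compared with 9.14% of all genes, and 0.0203% passed after adjustment. Cdkn1a had the highest p of the 9 in the F test (limma, adjusted p = 0.92), with differences of -0.07 ± 0.48 between retro-orbital and cheek tumors and -0.21 ± 0.48 between meninges and retro-orbital tumors, with errors that leave room for changes in either direction.

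Some markers of other cell types differed between the same locations before adjustment, and none passed after it. The summed level of 8 astrocyte and oligodendrocyte markers was 11.4 to 27.7 RPKM in the cheek tumors, 7.09 to 302 RPKM in the retro-orbital tumors and 200 to 475 RPKM in the meninges tumors, and Olig2, a defining marker of oligodendrocytes, was listed at 0 in 4 tumors. All 6 of these markers that were tested were higher in meninges than in cheek tumors at an unadjusted p under 0.05, where 17% of all genes were called in either direction, and 0 of 6 passed after adjustment in limma. The 5 Schwann cell markers that passed the filter on low values summed to 40.3 to 42.7 RPKM in the cheek tumors. They summed to 32.5 to 136 RPKM in the retro-orbital and 79.3 to 187 RPKM in the meninges tumors. In this sum the cheek and meninges tumors did not overlap, and of all genes taken singly 28.7% did not either. Pmp22 had by far the highest mean of these 5 over the 12 tumors, 67.5 RPKM, followed by S100b at 9.87 RPKM. Of these 5, only S100b, which astrocytes also express, had an unadjusted p under 0.05 in limma between meninges and cheek tumors (20%, beside 17% of all genes). It was at 0.593 to 1.68 RPKM in the cheek and 13.99 to 32.5 RPKM in the meninges (limma, difference 3.56 ± 0.59, adjusted p = 0.078). The 6 neuron markers summed to 16.7 to 449 RPKM in the cheek, 19.1 to 45.4 RPKM in the retro-orbital and 39.6 to 60.5 RPKM in the meninges tumors, with Nefl at up to 412 RPKM in cheek 2. Between meninges and cheek tumors, 3 of the 5 tested (Nefl, Syn1 and Syt1) had an unadjusted p under 0.05 in limma (60%, beside 17% of all genes). Of these, 2 were higher and 1 was lower in the meninges, and 0 passed after adjustment. The 8 skeletal muscle markers summed to 31.8 to 482 RPKM in the cheek, 10.0 to 186 RPKM in the retro-orbital and 5.45 to 283 RPKM in the meninges tumors, with Myog listed at 0 in 2 tumors. The 9 leukocyte markers summed to 144 to 188 RPKM in the cheek, 184 to 549 RPKM in the retro-orbital and 199 to 397 RPKM in the meninges tumors, and the 6 endothelial markers to 51.9 to 56.7, 21.8 to 100.2 and 48.9 to 79.4 RPKM. The part of these cells in the levels of Bax, Ccng1, Mdm4 and Sesn2 was not tested, and in bulk tumors fewer cells of a type and less RNA per cell cannot be told apart.

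Whether Trp53 varied together with its targets was asked over all 12 tumors. Ccng1 and Mdm4 followed Trp53 most closely, Mdm2 had a negative r, and the r of Cdkn1a, Bbc3 and Pmaip1 lay between 0.02 and 0.21. Of the 9 targets, 8 had a positive Pearson r with Trp53 on log2(RPKM + 1), with a median r of 0.25. Over all 15039 genes compared the median r was 0.12, so positive values prevailed there as well. For 2 of the 9 targets the permutation p (two-sided, 100000 resamples, without adjustment) was under 0.05, in a test that was not run over all genes. None passed after adjustment over all 15042 genes in limma's regression on Trp53, which 0.705% of all genes passed. At an unadjusted p under 0.05, 2 of the 8 targets tested and 16.7% of all genes were called in this regression. Retro-orbital 3, the lowest in Trp53, was also the tumor with the highest inferred total of fragments. Over the 12 tumors, Trp53 had r = -0.53 with the log2 total of fragments (permutation p = 0.0806, rho = -0.36 with p = 0.26), and r = -0.11 without cheek 3 and retro-orbital 3, the tumors with the lowest and the highest total. For Mdm2 this r was 0.51 (permutation p = 0.0889, rho = 0.50 with p = 0.11) and 0.60 without these tumors, and for Bax it was -0.43 (permutation p = 0.16, rho = -0.09 with p = 0.78) and 0.53 without them. The part of this total in the correlations was not tested.

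Ccng1 correlated with Trp53 at r = 0.68 (permutation p = 0.0158) and Spearman's rho = 0.69 (p = 0.0159). Its slope was 0.73 ± 0.23 log2 units for each log2 unit of Trp53 (limma, adjusted p = 0.14). Without retro-orbital 2 and 3, the tumors farthest from the median of Trp53, r was 0.39. Without retro-orbital 3 alone r was 0.48 with a permutation p of 0.14, so the p under 0.05 depended on that tumor. With location as a term in the fit over 10 tumors, which leaves out both nerve tumors, the slope was 0.69 ± 0.17 (limma, adjusted p = 0.36). Of all 15039 genes compared, 92.4% had a lower r with Trp53 than Ccng1 did.

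For Mdm4, r with Trp53 was 0.61 (permutation p = 0.0293) and rho 0.59 (p = 0.0485), with a slope of 0.29 ± 0.12 (limma, adjusted p = 0.27). Its r was 0.54 without the same pair of tumors, and 88.5% of genes had a lower r. The permutation p of Mdm4 was above 0.05 when retro-orbital 3 (r = 0.51, p = 0.11), meninges 1 (r = 0.53, p = 0.093) or meninges 3 (r = 0.60, p = 0.051) was left out. It was also above 0.05 with 1 tumor per shared name (r = 0.58, exact permutation p = 0.10) and under median-of-ratios scaling (r = 0.52, permutation p = 0.083). Mdm2, the inhibitor that p53 itself induces, had r = -0.43 with Trp53 (permutation p = 0.17) and rho = -0.28 (p = 0.38), and only 9.2% of all genes had a lower r. Without retro-orbital 2 and 3, which combined the lowest Trp53 with Mdm2 at 44.4 and 44.3 RPKM, its r was -0.08. The r of Cdkn1a with Trp53 was 0.21 (permutation p = 0.50), that of Bax 0.38 (p = 0.22), that of Bbc3 0.18 (p = 0.57) and that of Pmaip1 0.02 (p = 0.94). Sesn2 had r = 0.42 (permutation p = 0.17) and Gdf15, from few fragments, r = 0.25 (p = 0.43).

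**Figure D2:**
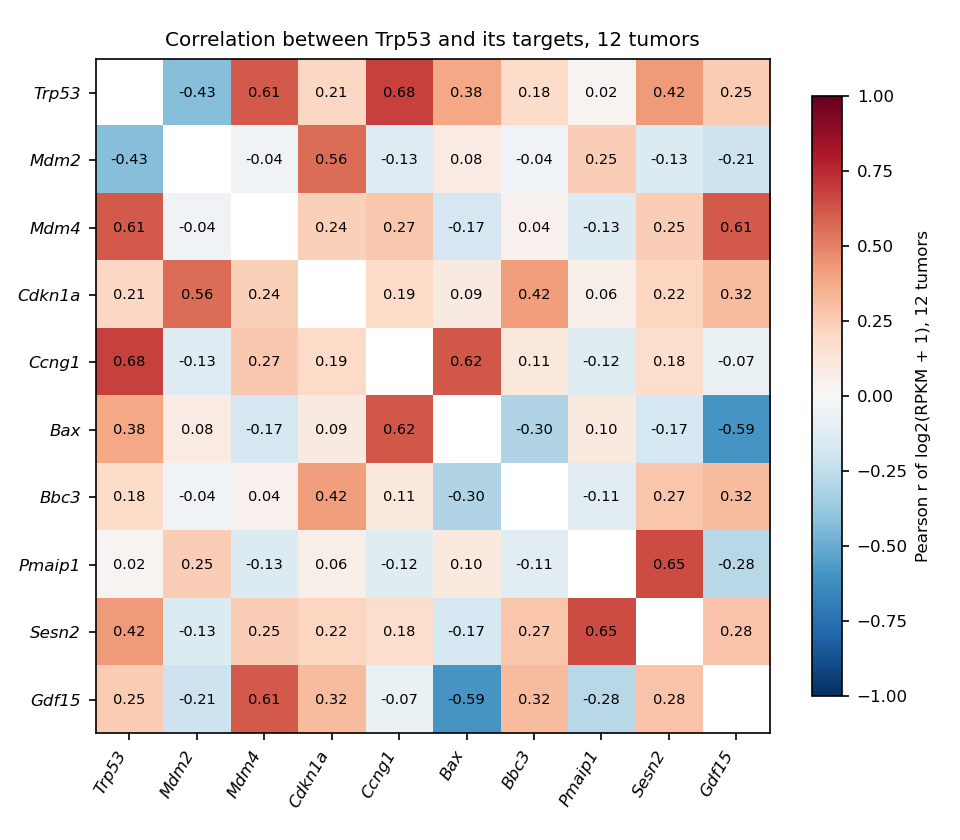
Pearson r (color and number in each cell) of log2(RPKM + 1) over the 12 tumors for each of the 45 pairs of Trp53 and its 9 targets, shown in both triangles. Trp53 is highest with Ccng1 (0.68) and Mdm4 (0.61), and the targets among themselves range from -0.59 (Bax and Gdf15) to 0.65 (Pmaip1 and Sesn2).

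The targets did not vary as a block. Over the 36 pairs of targets the median r was 0.09, and 22 pairs were positive. Of the 36 pairs, 4 had a permutation p under 0.05 before any adjustment, 2 of them by Pearson's r and Spearman's rho alike. Pairs of all genes were not counted in this way, so whether these counts differ from those of other genes was not tested. Bax and Ccng1 correlated at r = 0.62 (permutation p = 0.0304) and rho = 0.71 (p = 0.0118), and r was 0.54 without the 2 tumors farthest from the median of Bax. Bax and Gdf15 had r = -0.59 (permutation p = 0.0433) and rho = -0.63 (p = 0.0322), with r = -0.58 without the same pair of tumors. The summed astrocyte and oligodendrocyte markers moved with both genes, with r = -0.78 to Bax (permutation p = 0.00272, rho = -0.76 with p = 0.00540, r = -0.81 without retro-orbital 1 and 2) and r = 0.77 to Gdf15 (permutation p = 0.00149, rho = 0.75 with p = 0.00702, r = 0.82 without them). The sum of the 5 Schwann cell markers, in which Pmp22 had the highest mean, had r = -0.72 with Bax (permutation p = 0.00884, rho = -0.73 with p = 0.00977, r = -0.65 without retro-orbital 1 and cheek 3). Its r with Gdf15 was 0.49 (permutation p = 0.11, rho = 0.43 with p = 0.17, r = 0.23 without the same tumors). Other marker sums with a high r were the endothelial markers with Pmaip1 (0.68) and the neuron markers with Bbc3 (-0.66). These p-values are not adjusted for the number of marker lists and genes compared. The part of other cell types in the relation of Bax and Gdf15 was not tested. Gdf15 and Mdm4 had r = 0.61 (permutation p = 0.0318), but rho was 0.38 (p = 0.23), and Gdf15 was at 1.81 RPKM in meninges 1 and 3 and under 1 RPKM in all other tumors.

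Pmaip1 and Sesn2 gave the highest r among targets, 0.65 (permutation p = 0.0175), with rho = 0.55 (p = 0.0700). It fell to 0.30 without retro-orbital 2 and the vestibular tumor, and to 0.34 without retro-orbital 2 alone, where both genes were at their lowest. Both are also known targets of ATF4, the transcription factor of the integrated stress response. The RNA of Atf4 had r = -0.44 to Sesn2 (permutation p = 0.15, rho = -0.44 with p = 0.16, r = -0.31 without the 2 farthest tumors). To Pmaip1 its r was 0.18 (permutation p = 0.57, rho = 0.20 with p = 0.54, r = 0.08 without the 2 farthest). The 12 genes of the integrated stress response had r from -0.59 to 0.66 with Sesn2, 3 of them positive. The ATF4 protein was not measured, and its part in the relation of Pmaip1 and Sesn2 was not tested. Cdkn1a and Mdm2, the pair often read together as p53 output, had r = 0.56 (permutation p = 0.0593) and rho = 0.57 (p = 0.0549), and r was 0.53 without meninges 3 and cheek 1, 0.41 without cheek 1 alone and 0.65 without meninges 3 alone. Of all genes, 97.9% had a lower r with Cdkn1a than Mdm2 did. Cdkn1a, Bax and Ccng1 each had a pair of decamers in the window. Among them, Cdkn1a had r = 0.19 with Ccng1 (permutation p = 0.55, rho = 0.15) and r = 0.09 with Bax (permutation p = 0.79, rho = 0.02), while Bax and Ccng1 had r = 0.62.

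**Figure D3:**
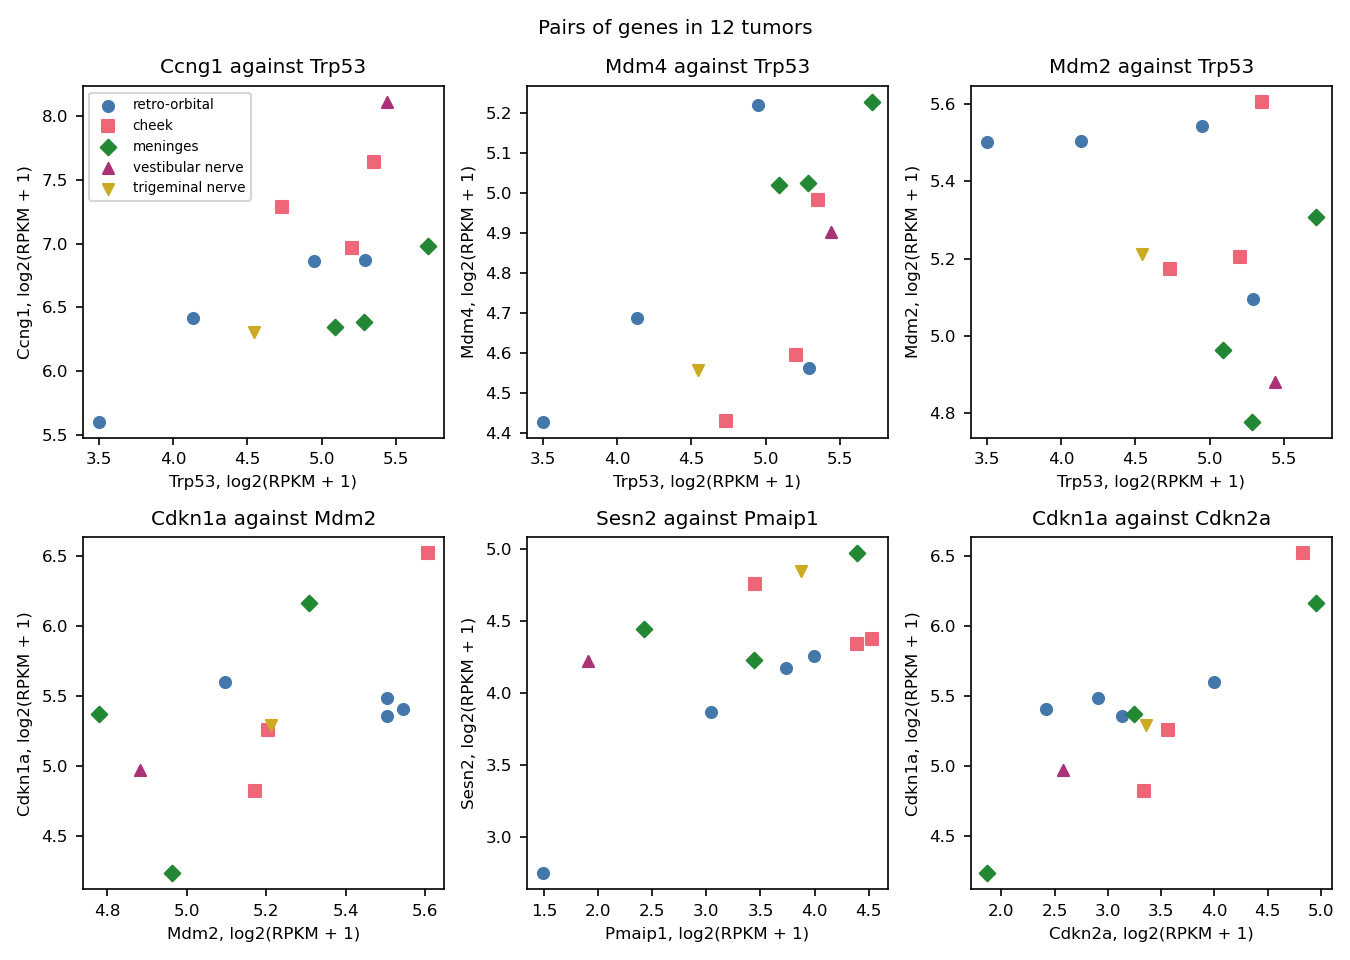
log2(RPKM + 1) of 6 pairs of genes in the 12 tumors, 1 point a tumor, with color and shape for location. In the panels with Trp53 on the horizontal axis the leftmost points are retro-orbital 3 and 2, in the panel of Sesn2 against Pmaip1 retro-orbital 2 lies alone at the lower left, and in the panel of Cdkn1a against Cdkn2a cheek 1 and meninges 1 lie together at the upper right.

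The regressions of all genes on Mdm2 and on Cdkn1a called no gene after adjustment. For Mdm2, limma called 0% of 15042 genes at an adjusted p under 0.05 and 4.45% (670 genes) at an unadjusted p under 0.05, among them Cdkn1a (slope 1.20 ± 0.53, unadjusted p = 0.042, adjusted p = 0.98 by limma). For Cdkn1a, limma called 0% at an adjusted p under 0.05 and 2.83% (426 genes) at an unadjusted p under 0.05, with 0 of the 8 genes tested among them. The genes most like Mdm2 over the 12 tumors were Vps11, a subunit of the vesicle-tethering complexes of the endosome and lysosome (r = 0.90), Stk19 (0.87), Ehd1, a protein of endocytic recycling (0.84), Agfg1 (0.83) and Arih1, a ubiquitin ligase (0.83). None of these 5 was in a list of p53 genes used here.

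The gene most like Cdkn1a of all 15039 was Cdkn2a, which encodes p16INK4a and p19ARF, the latter an inhibitor of MDM2. Cdkn2a was 14.95, 6.53, 7.78 and 4.36 RPKM in the retro-orbital, 27.5, 9.15 and 10.9 RPKM in the cheek and 29.9, 2.64 and 8.46 RPKM in the meninges tumors, and 4.99 RPKM in the vestibular and 9.27 RPKM in the trigeminal tumor. Cheek 1 and meninges 1 held the highest values and meninges 2 the lowest, as for Cdkn1a. Its r with Cdkn1a was 0.85 and rho 0.57, r was 0.69 without cheek 1 and meninges 2 and 0.64 without cheek 1 and meninges 1, and limma's adjusted p was 0.999972. The transcripts of p16INK4a and p19ARF were counted as one gene and cannot be told apart. The next in likeness to Cdkn1a were the ribosomal pseudogene Rps15a-ps6 (r = 0.82), whose reads can be shared with its parent gene, the glycolysis gene Ldha (0.78), Best1, a chloride channel gene (0.77), and the homeobox gene Otx1 (0.76).

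**Figure D4:**
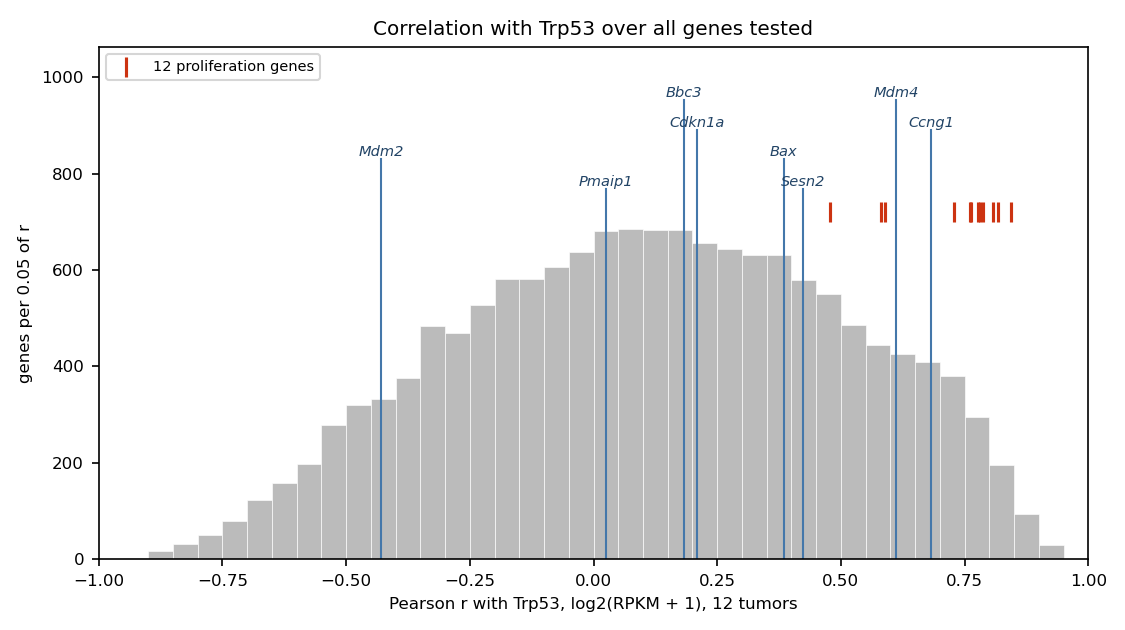
Histogram of Pearson r with Trp53 over the 12 tumors for 15039 genes (vertical axis, genes per 0.05 of r), with blue lines at 8 targets and red ticks at 12 proliferation genes. The targets spread from -0.43 (Mdm2) to 0.68 (Ccng1), whereas the proliferation genes lie between 0.48 and 0.84.

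The genes called with Trp53 held many histone genes and none of the 9 targets. In the regression on Trp53, limma called 106 genes at an adjusted p under 0.05, 90 rising and 16 falling with it. A count made after the values were seen found 19 of them among the 58 genes tested whose symbols start with Hist and a cluster number (32.8%), which encode mainly the histones made during DNA replication, all 19 rising. The copies of these histone genes are nearly identical, so that reads could be assigned among them wrongly. The 5 genes most like Trp53 were Kptn (r = 0.95), Rangrf (0.94), Usp40 (0.94), the mitochondrial topoisomerase gene Top1mt (0.93) and the linker histone gene Hist1h1a (0.93). Hist1h1a was lowest in retro-orbital 3 at 18.7 RPKM, with a median of 106 RPKM and a highest value of 231 RPKM in the vestibular tumor. This count depended on single tumors: without retro-orbital 3 or without meninges 1, the tumors with the lowest and the highest Trp53, 0 genes were called.

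All 12 proliferation genes had a positive r with Trp53, with a median of 0.77, compared with a median of 0.12 over all genes tested and 0.30 over the 8 targets tested. At an unadjusted p under 0.05, 11 of the 12 were called in limma, all with a positive slope, beside 16.7% of all genes, and 0 of 12 after adjustment, beside 0.705% (lowest adjusted p = 0.059 by limma). Top2a, the topoisomerase of dividing cells, ranged from 20.9 to 152 RPKM with a median of 56.5, Mki67, which encodes Ki-67, from 18.6 to 63.1 RPKM with a median of 49.2, and Ccna2, cyclin A2, from 19.1 to 65.5 RPKM with a median of 41.1. Each of the 12 was lowest in retro-orbital 3, where Trp53, Mdm4, Bax and Ccng1 were lowest as well. For Mki67 and Trp53, r was 0.76 (permutation p = 0.0054) and rho 0.44 (p = 0.15), and r was 0.18 without retro-orbital 2 and 3. For Top2a and Trp53, r was 0.76 (permutation p = 0.0032) and rho 0.59 (p = 0.0458), and r was 0.39 without the same pair. With Ccng1 the 12 proliferation genes had a median r of 0.66, with Mdm2 of -0.43 and with Cdkn1a of -0.12, where all 12 were negative for both. The part of proliferation in the relation of Ccng1 to Trp53 was not tested.

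A wider set of 28 further p53 targets lay near the middle of all genes in their likeness to Trp53. Their median r with Trp53 was 0.15, with 19 of 28 positive, beside the median of 0.12 over all genes. At an unadjusted p under 0.05, limma called 3 of 28 (Apaf1 and Btg2 with a positive and Gadd45a with a negative slope), a share of 10.7% beside 16.7% of all genes, and 0 of 28 after adjustment. The 3 highest of these genes were Rps27l at 76.0 to 223 RPKM (median 140), Ei24 at 29.4 to 87.5 RPKM (median 44.5) and the antiproliferative gene Btg2 at 26.7 to 91.8 RPKM (median 42.4), with r to Trp53 of 0.50, 0.19 and 0.73. With Cdkn1a the median r of the 28 was 0.19, and 5 (17.9%, beside 2.83% of all genes) were called at an unadjusted p under 0.05, 4 of them with a positive slope (Tigar, Phlda3, Sfn and Zmat3) and Steap3 with a negative one, again 0 after adjustment. With Mdm2 their median r was 0.11 and 1 was called before adjustment, Phlda3, with a positive slope, a share of 3.57% beside 4.45% of all genes. In the location F test 4 of the 28 had an unadjusted p under 0.05 (Aen, Eda2r, Gadd45a and Polk), a share of 14.3% that equals the 14.3% of all genes, and 0 passed after adjustment.

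Among 21 regulators of p53, such as the damage kinases and the ribosomal proteins that bind MDM2, the median r with Trp53 was 0.43, with 16 of 21 positive. Chek1, Chek2 and Prkdc, kinases of the DNA damage response, and Trp53bp1 had a positive slope on Trp53 at an unadjusted p under 0.05 in limma, 19.05% of the list beside 16.7% of all genes, and 0 of 21 passed after adjustment. The 3 highest were Rpl11 at 445 to 1457 RPKM, Rpl5 at 99.0 to 282 RPKM and Usp7, a deubiquitinase of p53 and MDM2, at 39.1 to 64.8 RPKM. The p53 paralogs were nearly silent in most tumors, with a median of 0.414 RPKM for Trp63 and 0.0682 RPKM for Trp73, although Trp63 reached 8.96 RPKM in meninges 1. Cdkn1b, the p27 paralog of Cdkn1a, was at 38.1 to 68.7 RPKM, Sesn1 at 8.82 to 25.5 RPKM and Ccng2 at 7.67 to 19.7 RPKM, with r to Trp53 of 0.13, -0.26 and 0.22. In this list of 7 paralogs, 0 of the 6 tested had an unadjusted p under 0.05 with Trp53.

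Of 12 other BCL-2 family genes, 11 were tested, and Bad (positive slope) and Bik (negative slope) had an unadjusted p under 0.05 with Trp53 (18.2%, beside 16.7% of all genes), with 0 after adjustment in limma. The survival gene Mcl1, the partner of NOXA, was at 51.0 to 178 RPKM (median 110), the pore-forming Bak1 at 15.9 to 38.4 RPKM and the survival gene Bcl2l1 at 13.2 to 36.6 RPKM. Mcl1 had r = 0.66 with Mdm2 and was the only gene of this list with an unadjusted p under 0.05 in the regression on Mdm2 (9.09% of the 11, beside 4.45% of all genes). Of 12 genes of the integrated stress response, Atf3 and Nupr1 had a negative slope on Trp53 at an unadjusted p under 0.05, the same 16.7% as over all genes, and 0 passed after adjustment in limma. Nupr1 ranged from 7.59 RPKM in the vestibular tumor to 888 RPKM in retro-orbital 3, the tumor with the lowest Trp53, Atf4 from 71.7 to 150 RPKM and Asns from 14.1 to 76.8 RPKM.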

How the data were processed

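The authors extracted total RNA (RiboPure), made TruSeq Stranded libraries after RiboZero Gold depletion and sequenced them as one pool. Per the labels and methods, bcl2fastq 2.17 and STAR on mm10 were used, uniquely mapped fragments were counted on RefSeq genes with HTSeq, and 1 RPKM value per gene and tumor was deposited. edgeR and limma are named without a role. Whether counting used strand and which gene lengths were used is not given in the sources used here.

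Fragment totals and numbers were recovered from the RPKM steps. Intervals and floors (3 fragments) cover counting error only. Tests used limma 3.58.1 (R 4.3.3) with trended, robust prior variance on log2(RPKM + 1), a scale that understates changes of low genes, for genes that reached 1 RPKM in 3 or more of the fitted tumors, adjusted by Benjamini-Hochberg at 0.05. Location fits used 10 tumors and regressions 12. Permutation tests and correlations used Python 3.11.15, numpy 2.4.6 and scipy 1.17.1. The scripts were tested on simulated data. Adjusted p-values cover all genes, never the 10 alone.

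The 10 genes, the lists and the tests were chosen with earlier results of these data known. The text names the 10, the genes of each list called in a fit (with those counted at an unadjusted p under 0.05) or else its 3 highest by mean RPKM, and the 5 genes most like Trp53, Mdm2 and Cdkn1a. Tigar was matched by its older symbol. 1 Schwann cell marker is not reported here. No 2 tumors agreed within sampling noise (lowest chi-square 39.9 per degree of freedom, meninges 3 and trigeminal, highest 252, retro-orbital 3 and cheek 2). Among pairs that share part of their name, it was 50.7 for cheek 2 and 3 and 94.7 for cheek 1 and meninges 1. For retro-orbital 3 and the trigeminal tumor it was 154. Positions are from GENCODE M21. Alternatives were another pseudocount, no filter, other scalings, a prior that was not robust, location as a term, fewer tumors and, added after seeing the data, the shared part of the sample name as a block (limma's duplicateCorrelation).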

Additional observations from a re-analysis of the deposited data

Results flagged for a closer look

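In the 4 retro-orbital tumors, 2 of the 10 genes had a tumor set apart from the others beyond Dixon's 95% critical value, and both times it was retro-orbital 1 on the low side. For Mdm2 the gap divided by the range was 0.894, with 33.2 RPKM in retro-orbital 1 and 44.3 to 45.7 RPKM in the others. For Gdf15 it was 0.866, with 0.272 RPKM, or 8 fragments, in retro-orbital 1. Chance passes this limit in about 1 of 20 groups, and 10 were screened.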

How the results depend on the processing

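With the shared identifier as a block, an alternative chosen after seeing the data, Ccng1 was called in the location F test and Ccng1 and Mdm2 in meninges minus cheek, and none of the 10 genes was called in a location comparison or regression under the other alternatives run. Counts over all genes moved. Without the filter on low values, the location F test called 10 genes, retro-orbital minus cheek 2, meninges minus retro-orbital 7, meninges minus cheek 18 and the regression on Trp53 44. With a pseudocount of 0.1, meninges minus cheek called 2 and the regression on Trp53 187. Median-of-ratios scaling, which shifted the median gene of a tumor by -0.16 to 0.19 (log2), gave 2 genes for retro-orbital minus cheek, 40 for the regression on Trp53, and 1 target, Ccng1, correlated with Trp53 at p under 0.05. Quantile normalization gave 13 genes for meninges minus cheek. With 1 tumor per shared identifier (without cheek 3, meninges 1 and the trigeminal tumor), the location F test and its 3 comparisons called 0, the regression on Trp53 called 3, and 1 target, Ccng1, correlated with Trp53. With location as a term, the regression on Trp53 called 0.

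Leaving out 1 tumor gave 0 to 198 genes in the location F test (198 without cheek 1), 0 to 147 for retro-orbital minus cheek, 0 to 41 for meninges minus retro-orbital, 0 to 527 for meninges minus cheek (527 without cheek 1), 0 to 117 for the regression on Trp53, and 0 to 2 targets correlated with Trp53. The correlation of Trp53 with Pmaip1 turned to -0.050 under quantile normalization and to -0.18 with 1 tumor per identifier, and ranged from -0.30 to 0.24 without 1 tumor. That with Bax ranged from -0.029 to 0.52. The causes were not tested. The labels carry no replicate numbers, so the only pairing is the shared first part of the sample name, whose origin is not stated. With it as a replicate block, the location F test called 2802 genes (1 of the 9), meninges minus cheek 4243 (2 of the 9), retro-orbital minus cheek 2 and the regression on Trp53 58, with estimated correlations of 0.93 in the location fit, which holds 2 such pairs, and 0.66 to 0.71 in the regressions, which hold 3. Low fragment numbers limit Gdf15, at 0 to 54 fragments.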
